A study of Schizosaccharomyces pombe with 2 samples.

Results

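The introns described here were spliced well in fission yeast (Schizosaccharomyces pombe) at 25 °C and poorly at 34 °C, the restrictive temperature of the mutation prp2-1 in the splicing factor Prp2. They are the introns of the deposited table of deeply read introns whose unspliced share lay under 15% at 25 °C and at 70% or more at 34 °C. The unspliced share is the number of unspliced reads as a percentage of all spliced and unspliced reads of an intron in a library. The table holds introns with over 50 such reads in each library, and 124 of its 1340 entries met both limits (9.25%). Of these entries, 2 repeat the 4 counts of another one, as mpo1 intron 4 does those of gna1 intron 1. That leaves 122 introns of 109 genes, of 1337 distinct introns in the table, and all values below are for these.

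Both libraries came from 1 culture of a strain with the alleles pat1_as2 and prp2-1. The cells were arrested in G1 by nitrogen starvation and taken through chemically induced, synchronous meiosis. When meiosis I began, one portion stayed at the permissive 25 °C and the other was moved to the restrictive 34 °C, and polyA RNA was collected 1 h later. The 25 °C library holds 636989 reads over 5374 introns and the 34 °C library 493659, with 1 library per temperature. Both libraries carry prp2-1, so an effect of the temperature and the loss of Prp2 cannot be told apart here. Introns of genes that mark meiosis were read deeply, among them the 3 introns of spo6, with 3468 to 7403 reads at 25 °C and 8250 to 17011 at 34 °C. Introns of the other markers had fewer reads at 34 °C than at 25 °C. At 25 and 34 °C the intron of mes1 had 1003 and 577 reads and that of mfr1 914 and 564. Intron 2 of spo4 had 4801 and 2324, and intron 1 had 1133 and 391.

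An intron is recognised at its start, the 5' splice site, by base pairing with U1 snRNA, and near its end at the branch site and the pyrimidine-rich tract that precedes the 3' splice site. Prp2 is the large subunit of U2AF, which binds that tract early in spliceosome assembly, and the title of the study concerns its role in holding U1 at the 5' splice site. U1 pairs with the last bases of the exon as well as with the first bases of the intron. The introns of fission yeast are short, and many genes hold several, so one transcript can be followed at more than one place.

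The sequences of 3 of the 5 deepest members are shown first, to give the parts of the intron compared below. The other 2 of the 5 are in spn7 and follow. Positions are on the ASM294v3 assembly, and all lie in coding sequence. The first 3 letters are the end of the exon before the intron. Capitals mark the first 6 bases of the intron, the best match to the branch site and the last 3 bases.
pmp31 intron 2, chrIII:613565-613627, minus strand: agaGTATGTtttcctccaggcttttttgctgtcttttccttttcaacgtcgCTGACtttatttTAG
uvi15 intron 2, chrII:539705-539914, plus strand: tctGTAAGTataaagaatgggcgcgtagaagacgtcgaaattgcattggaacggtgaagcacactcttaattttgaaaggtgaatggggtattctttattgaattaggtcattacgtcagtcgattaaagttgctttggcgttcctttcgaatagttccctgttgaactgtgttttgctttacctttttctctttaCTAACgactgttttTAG
elo1 intron 1, chrI:252338-252391, minus strand: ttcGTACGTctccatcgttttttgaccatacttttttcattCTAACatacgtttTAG
Of the 14 bases that end 3 before the exon, 10 are pyrimidines in pmp31 and 9 each in uvi15 and elo1. Their starts differ at intron base 4 alone. The exon ends in a base other than G in these 3, and in G before the 2 in spn7.

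Within a gene the sequences can be set beside neighbours that stayed better spliced. The septin gene spn7 holds 3 members among its 5 introns, shown here in the order of the transcript with the unspliced share at 34 °C.
spn7 intron 5, not a member, 14.1%, chrII:3230244-3230287, minus strand: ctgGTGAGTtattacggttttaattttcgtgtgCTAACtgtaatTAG
spn7 intron 4, member, 73.4%, chrII:3230112-3230161, minus strand: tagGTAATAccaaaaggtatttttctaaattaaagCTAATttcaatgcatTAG
spn7 intron 3, member, 94.2%, chrII:3229867-3230017, minus strand: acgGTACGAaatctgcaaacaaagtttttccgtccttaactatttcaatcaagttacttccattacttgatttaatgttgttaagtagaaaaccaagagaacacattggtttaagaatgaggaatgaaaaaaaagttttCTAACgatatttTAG
spn7 intron 2, member, 75.7%, chrII:3229316-3229354, minus strand: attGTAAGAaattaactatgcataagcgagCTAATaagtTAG
spn7 intron 1, not a member, 29.2%, chrII:3229161-3229202, minus strand: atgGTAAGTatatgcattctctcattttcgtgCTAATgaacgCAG
The 5 introns have the branch sites CTAAC or CTAAT, and intron 1, with the lower share, has the same CTAAT as members 2 and 4. Introns 1 and 5, which are not members, end their first 6 bases with GT, and the 3 members end theirs with TA or GA. The exon ends in G before introns 1, 3, 4 and 5, so the last exon base does not separate members from the others in this gene.

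The ubiquitin-conjugating enzyme gene ubc4 and dms1, a gene with no function in its RefSeq name, give the same comparison with 1 member and 1 better spliced intron each. Of ubc4 intron 2, which is 371 nt long, the first and the last 60 letters are shown.
ubc4 intron 1, member, 86.8% unspliced at 34 °C, chrII:715453-715531, plus strand: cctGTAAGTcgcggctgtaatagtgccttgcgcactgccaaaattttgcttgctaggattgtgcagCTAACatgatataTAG
ubc4 intron 2, 6.42%, chrII:715610-715980, plus strand, start: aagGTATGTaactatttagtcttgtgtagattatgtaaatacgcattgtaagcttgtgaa
ubc4 intron 2, end: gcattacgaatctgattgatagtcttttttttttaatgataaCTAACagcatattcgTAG
dms1 intron 1, member, 81.3%, chrIII:2033308-2033349, minus strand: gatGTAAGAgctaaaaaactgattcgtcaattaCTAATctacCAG
dms1 intron 3, 9.46%, chrIII:2033875-2033931, minus strand: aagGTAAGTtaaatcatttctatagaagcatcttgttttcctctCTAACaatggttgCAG
In both genes the better spliced intron shown follows an exon that ends in AAG. Both are among the 8 genes with the widest gaps at 34 °C, described below, so they show a strong contrast by choice. Such an exon end was as frequent before members (19 of 119, 16.0%) as in the table (16.2%). Intron 2 of dms1, not shown, had 28 of 35 reads unspliced at 34 °C (80%). The member of ubc4 has the commonest 5' splice site of the table, GTAAGT, behind an exon that ends in CCT.

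The shares that chose the members are given as a description and no test is drawn from them. At 25 °C they ran from 0% to 14.8% with a median of 8.71%, and 80 of the 122 lay under 10%. At 34 °C they ran from 70.1% to 95.8% with a median of 77.0%. Of the 122, 43 lay under 75%, 40 reached 80% and 6 reached 90%. The change had a median of 69.4 percentage points and ran from 57.1 to 90.4 points. In the whole table the medians were 5.19% at 25 °C, 36.4% at 34 °C and 28.3 points.

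**Figure D1:**
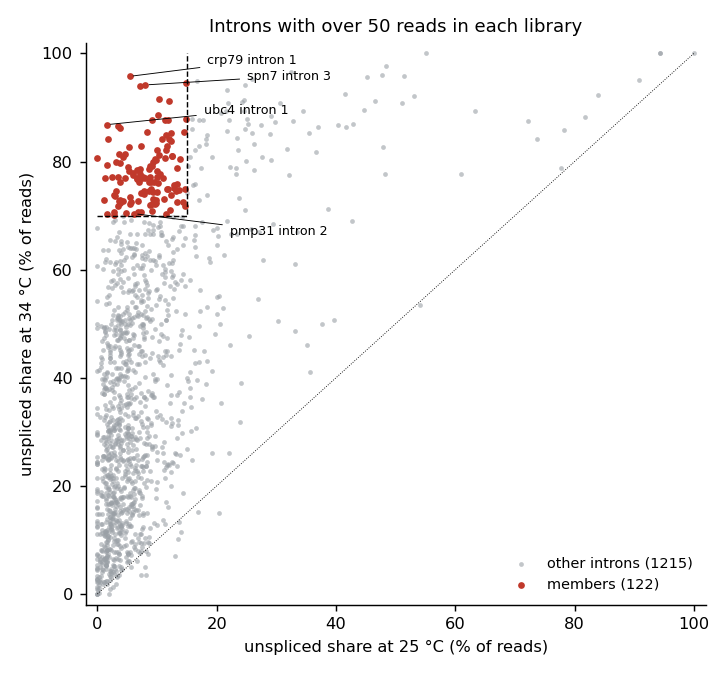
Unspliced share of each of 1337 introns at 25 °C (horizontal axis) and at 34 °C (vertical axis), in percent of its reads, with 1 library per temperature. The 122 members (red) lie inside the dashed limits of 15% and 70%, and the dotted line marks equal shares.

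The limits cut through a continuous range. Just inside the 34 °C limit lay cog5 intron 1 with 61 of 87 reads unspliced (70.1%), SPCC777.12c intron 1 with 144 of 205 (70.2%) and pmp31 intron 2 with 672 of 955 (70.4%). Just outside it lay pab1 intron 1 with 65 of 93 (69.9%), ufd2 intron 3 with 106 of 152 (69.7%) and med18 intron 2 with 161 of 231 (69.7%). At the 25 °C limit, tpz1 intron 4 and mug74 intron 1 at 14.8% and SPCC126.11c intron 2 at 14.7% were inside. Outside it were hel2 intron 1 at 15%, tsp0 intron 3 at 15.2% and SPBP19A11.07c intron 1 at 15.5%. For 29 of the members both exact 95% binomial intervals lay inside the limits. Intervals here are Clopper-Pearson intervals, and they cover counting error only.

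The 12 deepest members are described next, with the values of those outside spn7 and ubc4 first. Intron 2 of pmp31, which encodes a plasma membrane proteolipid, had 209 unspliced of 3396 reads at 25 °C (6.15%, interval 5.37 to 7.02), against 672 of 955 at 34 °C (70.4%, 67.4 to 73.2). Intron 2 of uvi15, for a tail-anchored protein of the plasma membrane, had 104 of 1413 (7.36%) and 819 of 989 (82.8%, 80.3 to 85.1). Intron 1 of elo1, for a fatty acid elongase, had 47 of 1559 (3.01%) and 221 of 300 (73.7%, 68.3 to 78.6). In pps1, which encodes the enzyme that makes phosphatidylserine, intron 2 had 35 of 1224 (2.86%) and 140 of 198 (70.7%), and intron 1 went from 13.9% of 872 reads to 80.4% of 143.

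The other deep members came from genes of several kinds. Intron 1 of mug170, for a membrane adaptor of the arrestin family, had 95 unspliced of 766 reads at 25 °C (12.4%), against 456 of 618 at 34 °C (73.8%). Intron 3 of tsn1, the gene of translin, an RNA-binding protein, had 42 of 1089 (3.86%) and 167 of 231 (72.3%). Intron 1 of dms1 had 42 of 1163 (3.61%) and 510 of 627 (81.3%). The single intron of mug74 had 84 of 567 (14.8%) and 575 of 654 (87.9%, 85.2 to 90.3). By the limits of the rule, every member has fewer unspliced than spliced reads at 25 °C and more at 34 °C. The total was lower at 34 °C in 3 of these 4 and higher in mug74.

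**Figure D2:**
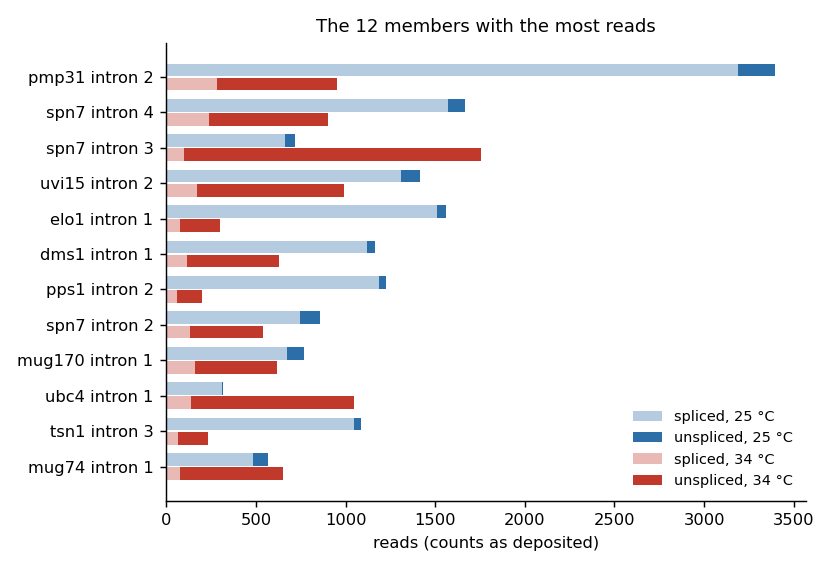
Reads of the 12 members with the most reads, as deposited, with spliced reads in light and unspliced reads in dark colour, at 25 °C (blue) and 34 °C (red). The rule that chose the members makes unspliced reads the smaller part of each blue bar and the larger part of each red bar. The red bar is longer than the blue one only for spn7 intron 3, ubc4 intron 1 and mug74 intron 1.

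The highest share at 34 °C belonged to intron 1 of crp79, for a poly(A)-binding protein of mRNA export, with 9 unspliced of 167 reads at 25 °C (5.39%), against 430 of 449 at 34 °C (95.8%, 93.5 to 97.4). Next came intron 4 of tpz1, a telomere-protecting protein gene, with 16 of 108 (14.8%) and 52 of 55 (94.5%, 84.9 to 98.9). Intron 3 of spn7 had 58 of 720 (8.06%) and 1652 of 1754 (94.2%, 93.0 to 95.2). They were followed by aah2 intron 2 at 94.0%, cps3 intron 1 at 91.6% and ppk3 intron 5 at 91.2%. The intervals of all 6 overlap, and their order was not tested.

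The lowest share at 25 °C was that of intron 1 of gpi12, a gene of GPI anchor synthesis, with 0 of 54 reads, for which the exact interval allows up to 6.60%, and it had 46 of 57 at 34 °C (80.7%). The intron of snu6, the gene of U6 snRNA of the spliceosome itself, had 1 unspliced of 96 reads at 25 °C (1.04%), against 121 of 166 at 34 °C (72.9%, 65.5 to 79.5). U6 is not a polyadenylated mRNA, and the reads here come from polyA RNA. Intron 1 of crd1, for cardiolipin synthase, had 2 of 153 (1.31%) and 57 of 74 (77.0%). Intron 1 of ubc4 had 5 of 315 (1.59%) and 910 of 1048 (86.8%, 84.6 to 88.8). In csk1, a kinase gene of the cell cycle, intron 2 had 1 of 62 and 38 of 54. Intron 2 of rgf2, for an activator of the GTPase Rho1, had 4 of 243 (1.65%) and 150 of 189 (79.4%).

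The members were set against 17 lists of genes by function, which held 533 of the 1337 introns and 41 of the 122 members. Members made up 9.12% of all introns of the table. Of the meiotic list, 9 of 62 introns were members (14.5%), with a change of 42.0 points at the list's median against 28.3 over all introns. All 9 were in genes taken by a mug or mde prefix, which names a gene for its expression in meiosis. The table held 46 introns of mug and meu genes, so the prefix is not read as a trait of the members. Among the genes of the 9, mug27 encodes a protein kinase of spore formation, mug28 an RNA-binding protein and mug56 a spore wall assembly protein. Intron 1 of mug27 had 33 unspliced of 869 reads at 25 °C (3.80%), against 225 of 282 at 34 °C (79.8%).

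The list of spore wall and forespore membrane genes held 4 members of 33 introns (12.1%, median change 42.2 points). They were in spo13, needed for the forespore membrane, and in wtf11, wtf20 and wtf25. RefSeq names the products of wtf20 and wtf25 antidote-like suppressors of meiotic drive and that of wtf11 a wtf element. These names do not place the wtf genes in the spore wall or forespore membrane. The spore wall gene mug56 was counted in the meiotic list. The intron of spo13 went from 9.88% of 243 reads to 73.0% of 233. The wtf genes resemble each other, so a read of one could have been counted for another. Of the list of septins, actin and cytokinesis 4 of 32 introns were members (12.5%, median change 23.6 points), 3 of them in spn7. The fourth was intron 2 of cdc4, the myosin light chain of the contractile ring, which went from 6.55% of 290 reads to 77.1% of 353.

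In the cell cycle list 2 of 18 introns were members, intron 9 of apc5, which encodes a scaffold protein of the anaphase-promoting complex, and intron 3 of cds1, the replication checkpoint kinase. Intron 9 of apc5 had 9 unspliced of 89 reads at 25 °C, against 133 of 175 at 34 °C (76.0%). The intron of ctp1, whose product trims DNA ends at meiotic breaks, is on none of the lists and went from 9.12% of 296 reads to 79.1% of 326. Of the list of RNA export and decay, 2 of 9 introns were members, those of crp79 and ptb1. RefSeq names the product of ptb1 a prenyltransferase subunit, and such enzymes act on proteins and not on RNA. Of the autophagy list 2 of 17 introns were members, and the deeper was intron 2 of atg24 with 75.2% of 165 reads.

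No member was found among 21 introns of the spliceosome list, 11 of the translation factor list, 12 of the chaperone list, 8 of the tubulin and spindle list and 3 of the replication and repair list, which are few introns at a share of 9.12%. The median change was 10.9 points for the spliceosome list, 21.5 for chaperones, 20.8 for replication and repair and 42.5 for tubulin and spindle, the last above the 28.3 of the table. The lists go by symbol, and 2 members outside them belong to the splicing machinery by their RefSeq names, snu6 and pwi1, for a splicing coactivator. Intron 1 of pwi1 had 6 of 84 reads unspliced at 25 °C against 59 of 76 at 34 °C (77.6%). Members outside the lists also include pfd2 and pfd5, for prefoldin subunits, and SPAC23C4.09c, for a chaperonin-associated protein. By their RefSeq names, fml1 encodes a DNA helicase, irc6 a recombination protein and ctp1 an endonuclease, and these too are members outside the lists. The lack of members thus holds for the lists and not for all genes of these functions. Of the cytosolic ribosomal protein list 2 of 51 introns were members (3.92%), both in single-intron genes. The intron of rpl29 went from 8.77% of 228 reads to 77.1% of 554, and that of rps1202 from 7.50% of 240 to 76.9% of 143.

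In 4 further lists members were a smaller share than in the table. These were 4 of 59 introns for ubiquitin and proteasome (6.78%), 3 of 49 for respiration and ATP synthase (6.12%), 6 of 105 for GTPases and vesicle transport (5.71%), and 1 of 25 for kinases and phosphatases (4%). As the lists go by symbol, they miss genes of their functions, and these shares describe the lists only. Members outside every list include gsk31 and csk1, for protein kinases, and paa1, for a phosphatase subunit. The kinase genes cds1 and mug27 were counted in other lists. Also outside are bet3, trs65, cog5 and cog6, for subunits of complexes of vesicle transport, and mms2, for a ubiquitin-conjugating enzyme. In the list of RNA polymerase II and general transcription both members of 18 introns were in med20, a Mediator subunit gene. Of the ubiquitin genes on the list, ubc4, ubc7 and ubc13 encode conjugating enzymes and pof2 an F-box protein. Intron 1 of ubc7 had 11 unspliced of 119 reads at 25 °C, against 184 of 230 at 34 °C (80%). In vesicle transport, intron 1 of sec17, for the SNAP that recycles SNARE complexes, went from 8.04% of 684 reads to 77.0% of 74.

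The members were spread over the transcripts. Of 119 members that could be placed, 117 lie in coding sequence, 1 in a 5' UTR and 1 in the non-coding snu6. Of the 122, 20 were the only intron of their gene in the table (16.4%), against 309 of 1337 introns (23.1%). In genes with more introns, 35 of 99 placed members were the first of the transcript (35.4%) and 33 the last (33.3%), against 34.4% and 34.1% in the table. Of the 117 coding members, 104 hold a stop codon in the reading frame (88.9%), against 88.7% in the table. A length divisible by 3 without such a stop was found in 2 of the 117 (1.71%), npg1 intron 5 and dms1 intron 1. In the table it was found in 32 of 1256 coding introns (2.55%).

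The other introns of the same genes were tested. Of 204 such introns, 164 introns of 83 genes had at least 20 reads in each library. Each was tested by Fisher's exact test (two-sided), with p-values adjusted by the Benjamini-Hochberg procedure over 2508 introns. The share was higher at 34 °C in 153 of the 164 (93.3%), against 82.6% of all introns tested. It was called lower in 0, and in 0 at an unadjusted p under 0.05, although 2 introns had a lower share, did2 intron 1 and SPAC23C4.09c intron 4. Of the 164, 88 are in the table of deep introns and are not members because they missed a limit, so their shares are not free of the rule. The rule was not applied to the 76 outside that table, and of these 70 were called higher (92.1%), against 76.7% of all tested introns outside it. The test sets the reads of 1 library against those of 1 other, with no replicate of either temperature. The other introns had a median share of 5.28% at 25 °C and 55.2% at 34 °C, and a median change of 46.7 points (order-statistic 95% interval 40.9 to 50.9). The 1708 tested introns of multi-intron genes without a member had 5.16%, 39.5% and 30.7 points. Outside the table of deep introns the medians at 34 °C were 59.5% for the 76 and 46.0% for 870 introns of multi-intron genes without a member, with median changes of 51.5 and 36.4 points. The introns of genes without a member had a lower median depth, at 142 reads summed over the 2 libraries against 197.5, and 83.5 against 113 outside that table, and the part of depth in the calls was not tested.

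The genes divided by how far their other introns followed the member. In 36 of the 83 genes every other tested intron had at least 50% unspliced reads at 34 °C, in 23 every one was under 50%, and in 24 they stood on either side. Of the other introns, 26 were still under 20% unspliced (15.9%), against 24.8% in multi-intron genes without a member. The other introns of member genes thus ranged from nearly fully spliced to mostly unspliced.

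In 12 genes 2 or more introns were members, and spn7 had 3. At 34 °C its introns had, along the transcript, 88 of 626, 664 of 905, 1652 of 1754, 408 of 539 and 151 of 518 reads unspliced. At 25 °C they had 35 of 1381, 91 of 1665, 58 of 720, 110 of 855 and 17 of 983. The 3 inner introns were the members, and the first and the last had 14.1% (11.4 to 17.0) and 29.2% (25.3 to 33.3). Spn7 is a septin made in meiosis that assembles at the forespore membrane.

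Other genes with several members showed both patterns. All introns of med20 and csk1 were members, with 77.6% and 72.1% at 34 °C in med20 and 84.9% and 70.4% in csk1. In aah2, which encodes an alpha-amylase, introns 3 and 2 were members at 86.3% and 94.0%, and intron 1 had 66.4% of 256 reads. In tpz1, introns 1 and 4 were members at 76.3% and 94.5%, and introns 2, 3 and 5 had 83.8%, 94.3% and 88.9% at 34 °C but lay over the 25 °C limit at 18.1%, 24.8% and 31.4%. Intron 6 of tpz1 was lower, with 3 of 29 reads at 25 °C and 12 of 29 at 34 °C (41.4%). In fkh1, which encodes a prolyl isomerase, introns 4 and 1 were members at 73.1% and 74.9%, while intron 3 had 2 unspliced of 262 reads at 25 °C, against 20 of 136 at 34 °C (14.7%, 9.22 to 21.8). In npg1 introns 2 and 5 were members at 85.4% and 82.1%, and the 7 introns ran from 7.39% of 582 reads for intron 6 to 86.3% of 124 for intron 7, which was already at 56.5% at 25 °C. In gid1, introns 3 and 2 were members at 77.2% and 81.2%, and intron 1 had 19.8% of 268 reads. In ncs1, a calcium-binding protein gene, introns 1 and 3 were members at 80.5% and 76.7%, and intron 2 between them had 27.4% of 62 reads.

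**Figure D3:**
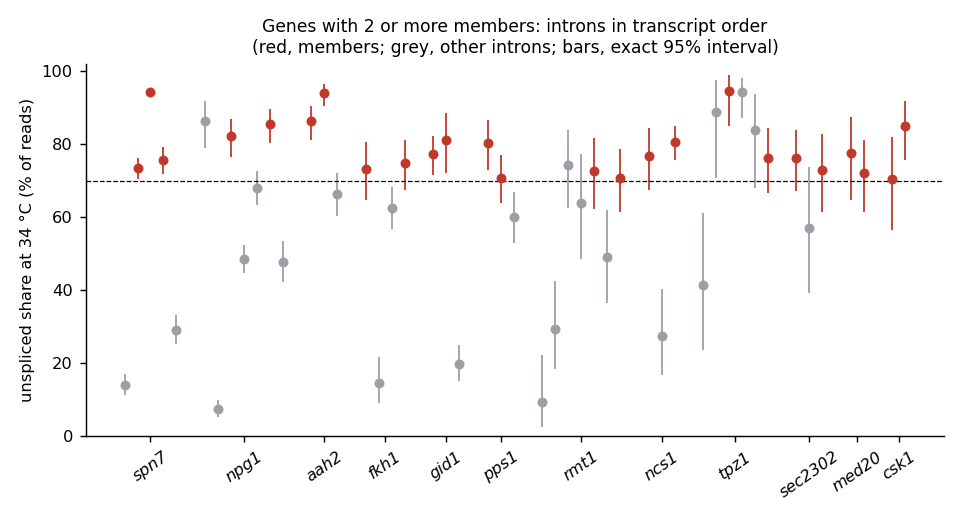
Unspliced share at 34 °C of the introns with at least 20 reads in that library, in the 12 genes with 2 or more members, in the order of the transcript. Points are shares in percent of reads, bars are exact 95% binomial intervals, and the dashed line is the 70% limit; spn7, fkh1, gid1, ncs1, npg1 and rmt1 each hold members (red) beside an intron (grey) under 30%.

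The widest differences inside a gene were described for 60 genes in which a further intron had at least 50 reads in each library. The gap at 34 °C between the most unspliced member and the least unspliced other intron had a median of 39.1 points and exceeded 50 points in 23 genes. These gaps set extremes side by side and get no test. In wtf20, intron 4 had 139 of 163 reads unspliced and intron 3 had 6 of 262 (2.29%), the widest gap, at 83.0 points. In ubc4 the values were 86.8% and 6.42% (5.37 to 7.61), and in npg1 85.4% and 7.39%.

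In did2, for a subunit of the ESCRT-III complex, intron 4 went from 8 of 60 reads to 164 of 208 (78.8%), and intron 6 had 9 of 251 and 18 of 342 (5.26%), which did not pass the test, as introns 1, 2 and 3 of did2 did not. In dms1, intron 3 had 6 of 83 and 7 of 74 (9.46%). In SPAC23C4.09c, a chaperonin-associated protein gene, intron 3 was at 78.6% of 140 reads and intron 1 at 7.46% of 67. In rgf2, intron 1 had 10 of 622 reads and 22 of 241 (9.13%). Over all 83 genes, 11 other introns did not pass the test, 7 of them in did2 and SPAC23C4.09c.

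The 5' splice sites of the members differed from those of the table in 2 places, the intron side and the exon side of the border. Intron numbers in the table rise with the chromosome coordinate, also for genes on the minus strand. This follows from entries repeated between neighbouring genes on the minus strand. On this numbering 119 members and 1285 introns of the table had a position, and all 119 were GT-AG introns. The sequences did not enter the rule, and the counts below are a description.

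On the intron side, GTAAGT began 17 of the 119 members (14.3%) and 369 of the 1285 introns of the table (28.7%). Over single-intron and plus-strand genes, where the direction of numbering does not matter, it began 12 of 69 members (17.4%, exact interval 9.32 to 28.4) and 255 of 786 introns (32.4%). If introns were instead numbered along the transcript, GTAAGT would begin 21.8% of members. The share in the table on that numbering is not given, so the difference that remains cannot be read. GTATGT was as frequent in members (26, 21.8%) as in the table (21.6%). The members had 34 different starts in all. GTAAAA began 4 members, of 11 introns of the table with this start, and GTTCGT 3 of 9. The members with GTAAAA were in mug170, mug157, med20 and SPCC126.11c. The base at intron position 5 was G in 98 members (82.4%), against 90.7% in the table.

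On the exon side, the last base of the exon was G in 45 of the 119 members (37.8%, exact interval 29.1 to 47.2) and in 748 of the 1285 introns (58.2%). It was T in 42 members (35.3%) against 18.8%, and A or C in 20 and 12 (16.8% and 10.1%), against 13.4% and 9.57%. The last exon base was chosen for comparison after the values were seen, among properties of the 5' splice site, the branch site, the pyrimidine tract, base composition, length, flanking exons, position and reading frame. In the other tested introns of the same genes, 159 of which were placed, it was G in 56.0%, and 25.2% began with GTAAGT. The difference was present with each kind of start. Of members with GTATGT, 5 of 26 followed a G (19.2%), against 161 of 277 in the table (58.1%). Of members with any start other than these 2, 40 of 76 did (52.6%), against 445 of 639 (69.6%).

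Of the 17 members that begin with GTAAGT, 0 followed an exon that ends in G, against 142 of 369 introns with this start in the table (38.5%). The 17 include uvi15 intron 2 and ubc4 intron 1, printed above. They also include the introns of mug95 and snu6, introns 1 and 4 of fkh1, intron 2 of npg1, intron 2 of urm1, a ubiquitin-like protein gene, and intron 1 of ubc7. Their exons end, with the start of the intron in capitals, as tctGTAAGT in uvi15, cctGTAAGT in ubc4, ggtGTAAGT in mug95, attGTAAGT in snu6, cccGTAAGT in npg1 and tccGTAAGT in ubc7. At 34 °C the 17 had shares from 70.2% in SPCC777.12c to 86.8% in ubc4.

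Over all introns of the table, members included, the share at 34 °C was lower behind a G in each class. Introns with GTAAGT behind a G had a median share of 17.5% at 34 °C (order-statistic 95% interval 13.6 to 20.5, 142 introns), and those with GTAAGT behind another base 36.5% (32.6 to 39.8, 227 introns). For GTATGT the medians were 24.7% (19.8 to 28.8) and 50.8% (43.8 to 57.9), and for all other starts 36.4% (31.7 to 41.9) and 56.0% (50.7 to 62.4). At 25 °C the 6 medians lay between 4.67% and 6.86%. The intervals treat introns as independent, which those of 1 gene are not. Members made up 0 of the 142, 17 of the 227 (7.49%), 5 of 161 (3.11%), 21 of 116 (18.1%), 40 of 445 (8.99%) and 36 of 194 (18.6%).

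**Figure D4:**
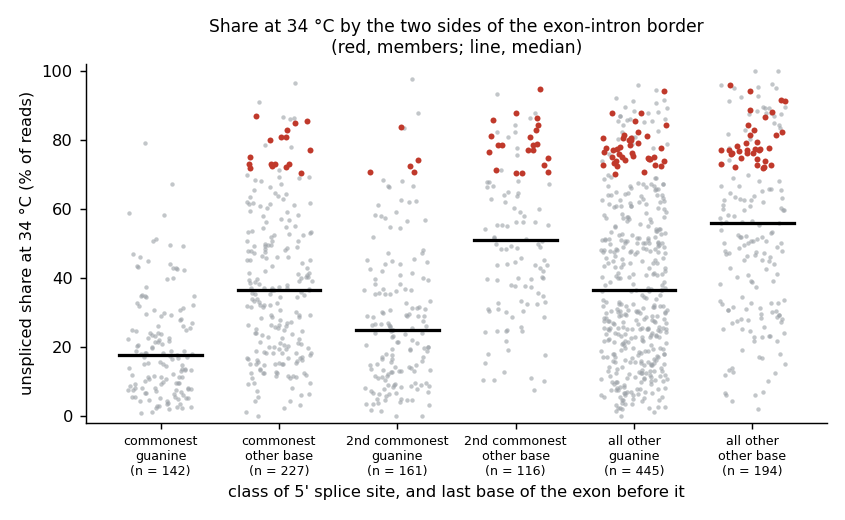
Unspliced share at 34 °C (percent of reads) of 1285 placed introns, grouped by the start of the intron (the commonest sequence, the second commonest, or any other) and by the last base of the exon (guanine or another base). Points are introns, members in red, and lines are medians; in each of the 3 classes the median is lower behind a guanine, at 17.5%, 24.7% and 36.4% against 36.5%, 50.8% and 56.0%.

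Over both sides, the 9 letters from 3 bases before the border to 6 after it were compared with CAGGTAAGT, which pairs with U1 along its length. At least 7 of the 9 letters were equal in 19 members (16.0%), against 35.7% of the table, and at most 5 in 50 members (42.0%) against 22.1%. Members were 1 of 92 introns with 8 equal letters, 18 of 359 with 7 (5.01%), 50 of 542 with 6 (9.23%), 48 of 253 with 5 (19.0%) and 2 of 26 with 4. The share at 34 °C had a median of 17.8% with 8 equal letters, 24.8% with 7, 38.9% with 6 and 54.0% with 5. It did not go on rising at 4 letters, with 53.9%. The 5 introns with 1 to 3 letters had medians between 1.04% and 32.1%. An intron with 1 equal letter cannot begin with GT, and 1280 of the 1285 placed introns were GT-AG. Placed lengths began at 1 nt, so some positions may be faulty, and nothing is read from these 5 introns. With all 9 letters it was 8.95% (8 introns, 0 members). Inside 80 genes with both kinds placed, members had fewer equal letters than the other tested introns in 43, more in 22 and the same mean in 15. In 57 genes with a placed member and a further deep intron, 32 of the least unspliced introns followed a G and 21 of the members did. In the 8 with the widest gaps, which were chosen for the gap, 7 and 2 did.

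Members had a median length of 51 nt (order-statistic 95% interval 49 to 55), against 59 nt in the table, and over single-intron and plus-strand genes 54 nt (50 to 64) against 62 nt. Of the members 44 had at most 48 nt (37.0%, against 26.9%) and 16 at least 100 nt (13.4%, against 24.8%). They ran from 36 nt in pof2 intron 1 to 396 nt in ubc7 intron 1. The branch site was searched on the intron's strand in its last 60 nt, from base 7 on, as C, T, A or G, A, and C or T, with the best match taken. All 4 letters besides the branch point A were found in 94 of 119 members (79.0%) and 77.5% of the table. CTAAC was the best match in 44.5% of members and 46.7% of the table, and a median of 11 bases lay between the branch point and the exon in both. Of the 14 bases that end 3 before the exon, a median of 9 were pyrimidines in members and 8 in the table.

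The number of reads of the members changed between the libraries as it did in the table. The median log2 ratio of reads, 34 over 25 °C, with 1 added to each count and scaled by library totals, was 0.37 for members (order-statistic 95% interval 0.13 to 0.52) and 0.37 for the table (0.30 to 0.41). Before scaling, 60 of 122 members had more reads at 34 °C (49.2%), against 49.4% of the table. The range was wide, from 684 and 74 reads at 25 and 34 °C in sec17 intron 1 to 59 and 220 in trm11 intron 2. In 33 of the 122 members the unspliced reads at 34 °C outnumbered all reads at 25 °C. The members were chosen for a high unspliced share at 34 °C, and the share over the table is not given. The count is therefore not read as a trait of the members.

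**Figure D5:**
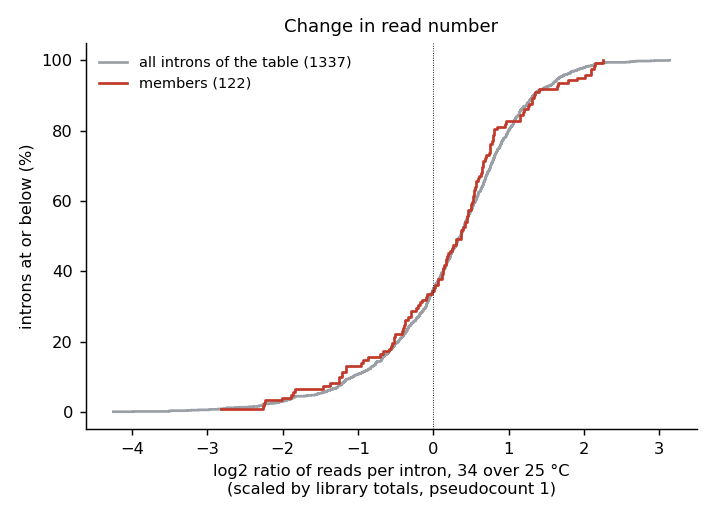
Cumulative share of introns (vertical axis, percent) by the log2 ratio of their reads at 34 over 25 °C (horizontal axis, scaled by library totals). The curves of the 122 members and of all 1337 introns of the table have the same median, 0.37.

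Inside genes the members and their neighbours were also compared, as a description. The read ratio was higher for the members than for the other tested introns in 56 of 83 genes, with a median difference of 0.32 on the log2 scale. The reads of an intron include the unspliced reads at 34 °C that entered the rule. Members also needed over 50 reads in each library, and the other introns at least 20. The difference is thus not free of the rule. In spn7, intron 3 went from 720 to 1754 reads (2.44-fold), while the other 4 introns had between 0.453 and 0.630 times as many reads at 34 °C. In ubc4, intron 1 went from 315 to 1048 reads (3.33-fold) and intron 2 from 1394 to 1930 (1.38-fold). In crp79 the gain of the member over the other introns was the widest, at 2.16 on the log2 scale. How an unspliced read was defined is not given in the sources used here. Members of at least 100 nt had a median log2 read ratio of 0.45 (16 introns), and those of at most 51 nt 0.31 (62 introns). In the whole table the order was the other way, at 0.33 (319 introns) and 0.40 (461 introns). The part of length in the ratio was not tested.

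An exon of another annotated gene overlaps 65 of the 119 placed members (54.6%), against 57.0% of the table, always on the opposite strand, and strand use in counting is not given in the sources used here. The median share at 34 °C was 77.2% for these 65 members and 76.9% for the other 54. In spn7 the non-coding gene SPNCRNA.1588 overlaps all 5 introns, those at 14.1% and 29.2% as well as the 3 members. The median log2 read ratio was 0.45 for overlapped members and 0.26 for the others.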

How the data were processed

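The deposited tables hold unscaled read counts for each intron and library, spliced and unspliced apart, as the file headers name them, and the authors' ratio of spliced to unspliced reads after each 0 was set to 1. All 10748 ratios matched recomputation within a relative tolerance of 1e-06 and were not used further. The 1340 entries of the smaller table have the counts of the full one. TopHat and SAMtools are named in the submitters' processing notes. Anything on tool versions, build, gene models, counting, strand use and how a read was called unspliced was not given in the sources used here.

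Libraries were assigned to temperatures by title. Fisher's exact test was run with SciPy 1.17.1 on Python 3.11.15, after tests on simulated data, over introns with at least 20 reads in each library. Gene names, positions and sequences come from RefSeq's ASM294v3, which may not be the authors' build. Of 2548 gene identifiers 2541 matched, and 2415 genes with an equal number of introns in exactly 1 annotated transcript could be placed, which leaves out the members in cox7, vps68 and xks1. Entries with equal counts in genes of 1 strand within 5000 bp were counted once.

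The members, gene lists and tests were chosen with earlier results of these data known, and the comparison of exon ends was added after the values were seen. Introns were named by depth, by highest and lowest share, by gene list, by genes with several members, by the widest gaps and by closeness to the limits. Intervals cover counting error only, and reads that are PCR copies are not independent.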

Additional observations from a re-analysis of the deposited data

How the results depend on the processing

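The number of members depends on where the limits are set. Over the entries, repeats included, it was 124 as reported, 82 with a share under 10% at 25 °C, 143 under 20%, 216 with at least 60% at 34 °C, 41 with at least 80%, 60 with over 100 reads in each library, 29 with both exact intervals inside the limits (distinct introns), and 54 without introns overlapped by exons of other genes. The other introns called higher were 169 of 185 with a minimum of 10 reads, 83 of 88 with over 50 reads, 127 of 164 with Bonferroni adjustment and 66 of 67 free of overlapping exons, where fewer introns were tested. These are 91.4%, 94.3%, 77.4% and 98.5%, against 75.2%, 87.8%, 54.8% and 84.7% of all introns tested in the same way. Outside the table of deep introns, an alternative chosen after seeing the data, 70 of 76 were called higher, with a median change of 51.5 points. Under the other alternatives the median change lay between 42.2 and 47.6 points. The median log2 read ratio of members was 0 without scaling and 0 with the median intron of the table set to no change, which is the shift of 0.37 that scaling by totals gives all introns. The share of members behind a G was 36.2% in single-intron and plus-strand genes, against 57.9% of the table. Numbered along the transcript it was 39.5% against 56.7%, and free of overlapping exons 44.4% against 58.0%. These 3 alternatives were chosen after seeing the data. No paired analysis was possible because each temperature has 1 library, and leaving out a replicate was impossible for the same reason. Shares under about 60 reads rest on few counts.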
